A study of Mus musculus with 10 samples.

Results

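The genes described are the PGC-1 coactivators Ppargc1a (PGC-1α), Ppargc1b (PGC-1β) and Pprc1 (PRC) and the transcription factors they work with, Esrra, Esrrb, Esrrg, Nrf1, Gabpa and Yy1. They were taken by gene symbol from a table of Illumina bead-array signals, in which 8 of the 9 named genes had a probe; Pprc1 was not analysed here because no probe carried its symbol. The 8 genes had 10 probes of 25697 on the array, 3 of them for Gabpa and 1 for each other gene. Total RNA of whole ileum, the last segment of the small intestine, was measured in 10 FVB/N mice of 3-4 months: 5 carried the genotype label iPGC-1β and 5 were wild-type littermates. The design compares these groups of 5, with 1 array a mouse and no treatment. The name iPGC-1β is used in the field for mice that carry PGC-1β as a transgene in the intestinal epithelium; the labels give neither the construct nor its promoter, and assign no mouse a sex, litter or array batch.

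PGC-1 coactivators do not bind DNA themselves. They dock on transcription factors and bring histone acetyltransferases and the Mediator complex to a promoter. With the estrogen-related receptors (ERRs), orphan nuclear receptors that bind DNA without a known natural hormone, and with NRF-1, GABP and YY1 they switch on nuclear genes of mitochondrial respiration. In the intestine, PGC-1α is known to be most active in the differentiated absorptive cells of the villus.

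In the arrays labelled iPGC-1β, the probes of both measurable coactivators, Ppargc1a and Ppargc1b, read lower than in wild-type ileum, at 51.6% and 65.4% of the wild-type mean. Whether the single Ppargc1b probe can read the transgene was not tested, so its signal is not the total transcript of the gene. Its call held in 11 of 22 alternative analyses, given below. Esrra, the ERR receptor with a measurable probe, was 1.33-fold higher, and its groups did not overlap. Nrf1 and Gabpa did not pass the test. Of the 5 members that could be tested, 1 was higher and 2 were lower, against 9.88% of all 9365 tested genes higher and 7.41% lower (17.3% in either direction; limma, Benjamini-Hochberg adjusted p under 0.05 over all tested genes). So few members allow no statement that they were called more often than other genes. Of genes known to respond to the partner factors, 10 of 15 tested ERR target genes and 13 of 22 tested NRF-1 and GABP target genes were higher, and no tested gene of either list was called lower. The 10 include the member Esrra (9 of 13 were higher without the members). They also include Slc25a4, detected on 1 wild-type and 5 iPGC-1β arrays (9 of 14 without it). Both lists were chosen with earlier results of these data known.

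Every array detected a similar number of probes, from 12370 to 12771 at a detection p under 0.05, and the median deposited signal ranged from 127.7 to 155.1. The number of arrays limits the precision of every value. The p-values set a difference between groups against the variation among these arrays. With 1 array a mouse, variation between mice and technical variation cannot be told apart. Epithelial markers of the ileum were measurable in both groups, but they differed between them. Over the 8 tested enterocyte markers (Sis, Anpep, Apoa1, Apoa4, Vil1, Slc5a1, Mep1b and Slc15a1), 3 were lower (37.5%, against 7.41% of all tested genes) and none higher in the arrays labelled iPGC-1β. The mean log2 intensity of the 8 was 11.85 to 12.75 in wild-type and 11.38 to 12.12 in the arrays labelled iPGC-1β (two-sided exact permutation p = 0.0317). Among 4 ileal enterocyte markers, 2 were lower (50%, against 7.41%), Fgf15 and Slc51b, and the list means did not overlap, at 12.08 to 12.61 against 11.28 to 11.99 (exact permutation p = 0.00794, below which groups of 5 cannot reach). The 4 markers did not move alike. Log2 differences were -1.79 for Fgf15 (-0.87 without background correction) and -0.81 for Slc51b. Slc51a (-0.25, limma adjusted p 0.250) and Fabp6 (0.093, limma adjusted p 0.652) were not called. The list mean thus leans on Fgf15. Fabp1, Fabp2 and Slc10a2 had a probe that was below background on too many arrays to be kept. Of 43 tested markers of 10 other cell types, from goblet cells to neurons, 0 were called by limma, against 17.3% of all tested genes. An unadjusted p under 0.05 was reached by 2, without a share of all tested genes to set beside it. All 4 tested T cell markers were nonetheless lower on average (median log2 difference -0.71, exact permutation p of the list mean 0.246). Their list mean was 5.75 in iPGC-1β replicate 3, the lowest of all arrays. The medians of the other lists ran from -0.40 (Paneth cell) to 0.34 (endothelium). In whole tissue, fewer cells of a type and less RNA per cell cannot be told apart, and the part of the enterocyte markers in the members' differences is given beside the results as values only.

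Ppargc1b, the coactivator that the mice are named for, was detected on all 10 arrays by its single probe, ILMN_2771709 (gene on chromosome 18). Its log2 intensity was 8.34, 8.42, 7.93, 8.40 and 8.49 in wild-type replicates 1 to 5, and 7.32, 8.22, 7.38, 7.54 and 8.05 in iPGC-1β replicates 1 to 5. Of the arrays labelled iPGC-1β, 3 lay below every wild-type array, while replicates 2 and 5 lay within the wild-type range, which wild-type replicate 3 extended downward. The mean was 7.70 ± 0.41 against 8.32 ± 0.22 (SD, n = 5 each). The log2 difference was -0.61 (SE 0.19, 95% interval -1.03 to -0.20), a level of 65.4% of wild-type, with a limma adjusted p of 0.0452 and an exact permutation p of 0.0317. A larger fall was seen in 6.37% of tested genes.

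This probe therefore read lower in the animals named for the gene. Where the probe lies in the transcript, and which sequence the transgene holds, were not among the sources used here, so whether the probe can read the transgene was not tested, and its signal does not check the labels. The call was also close to the threshold. Leaving out 1 array took the adjusted p to between 0.0756 and 0.0998 when the array was replicate 1, 3 or 4 of iPGC-1β or any wild-type array other than replicate 3, with log2 differences from -0.61 to -0.52; median centring in place of quantile normalization gave an adjusted p of 0.0549 (log2 difference -0.66), and testing all probes without a filter gave 0.0716.

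Ppargc1a, the coactivator best known for inducing mitochondrial genes in muscle, brown fat and fasted liver, showed the lowest level relative to wild-type among the 5 tested members. Its probe, ILMN_2710139 (chromosome 5), was detected on all 10 arrays. The log2 intensity was 8.08, 8.10, 8.41, 8.17 and 7.43 in wild-type replicates 1 to 5, and 7.66, 6.87, 7.15, 7.22 and 6.51 in iPGC-1β replicates 1 to 5. Wild-type replicate 5 lay within the range of the arrays labelled iPGC-1β, and the 4 others lay above all of them. The log2 difference was -0.96 (SE 0.22, 95% interval -1.44 to -0.47), from a mean of 8.04 ± 0.36 to 7.08 ± 0.43 (SD, n = 5 each), which is 51.6% of wild-type with a 95% interval of 37.0% to 72.0%.

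The limma adjusted p for Ppargc1a was 0.0106 and the exact permutation p 0.0159, and 1.44% of tested genes had a larger fall. In the deposited signal before normalization the groups lay narrowly apart, at 283.4 to 470.3 in wild-type against 205.8 to 279.8, on arrays with medians of 127.7 to 155.1. After normalization they overlapped. The share of all genes whose groups lay apart before normalization was not computed. The call held without any single array (adjusted p 0.00300 to 0.0307). Without background correction the log2 difference was -0.60 (adjusted p 0.00894), and from the authors' processed values -0.61 (0.00872). Within groups the deviations of Ppargc1a had r = 0.30 with the enterocyte marker mean over 10 arrays: wild-type replicate 5 was lowest of its group in both, while iPGC-1β replicate 1 had the lowest marker mean and the highest Ppargc1a of its group. With the enterocyte marker mean as a covariate, an alternative chosen after seeing the data, the log2 difference of Ppargc1a was -0.74 with an adjusted p of 0.141, and that of Ppargc1b was -0.80 with an adjusted p of 0.0714.

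The difference of Ppargc1b was not distinguishable from that of Ppargc1a. Taken within each array, Ppargc1b minus Ppargc1a changed by 0.34 on the log2 scale (SE 0.43, 95% interval -0.65 to 1.34, two-sided exact permutation p = 0.444, adjusted 0.444 over the 2 pairs of members that could be compared), an interval wide enough to hold a clear difference in either direction. Pprc1, the third coactivator, which is known to respond to serum and growth signals, had no probe.

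**Figure D1:**
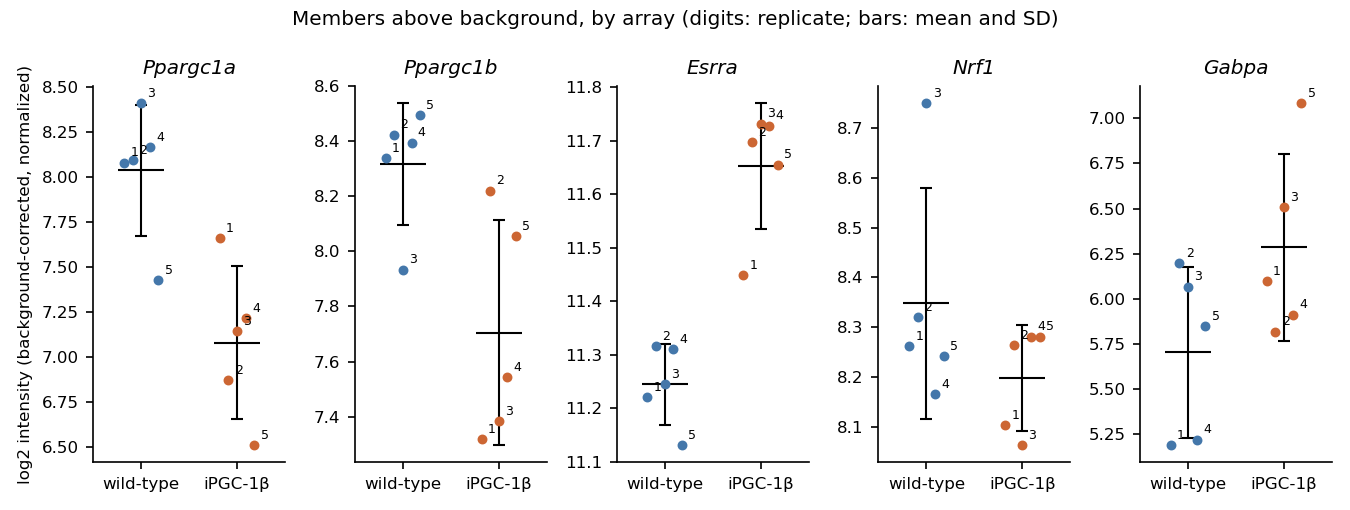
Log2 intensity (background-corrected, quantile-normalized) of the 5 members above background, one panel a gene with its own axis; points are single arrays numbered by replicate, and the bars give the mean and SD of 5 wild-type and 5 iPGC-1β arrays. Esrra separates the groups, from at most 11.32 to at least 11.45, whereas Ppargc1a and Ppargc1b are lower on average with wild-type replicate 5 and wild-type replicate 3, respectively, inside the iPGC-1β range.

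Among the ERR receptors, Esrra (ERRα) is the form found in most tissues with high oxidative activity, and its own gene is a known target of ERRα and PGC-1. Its probe, ILMN_2972292 (chromosome 19), gave log2 intensities of 11.22, 11.32, 11.24, 11.31 and 11.13 in wild-type replicates 1 to 5. The arrays labelled iPGC-1β gave 11.45, 11.70, 11.73, 11.73 and 11.66. All 5 of these were above all 5 wild-type arrays, with iPGC-1β replicate 1 nearest to wild-type. Groups that did not overlap, with the iPGC-1β arrays higher, were found for 8.66% of tested genes, and with the iPGC-1β arrays lower for 5.62%; Esrra was the one tested member of either kind.

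The mean of Esrra was 11.65 ± 0.12 against 11.24 ± 0.075 (SD over 5 arrays). On the log2 scale the groups differed by 0.41 (SE 0.11, 95% interval 0.16 to 0.65). This is 1.33-fold, with a 95% interval of 1.12 to 1.57, at a limma adjusted p of 0.0267 and an exact permutation p of 0.00794. The size was moderate among all genes, 13.6% of which had a larger rise. The adjusted p was 0.0510 to 0.0646 without wild-type replicate 1 or 3 or iPGC-1β replicate 3, 4 or 5, with log2 differences of 0.39 to 0.41, and 0.124 (0.32) under median centring. Within groups the level of Esrra had r = 0.77 with the enterocyte marker mean (deviations from the group means, 10 arrays of the same hybridisations, the highest of 11 marker lists). Wild-type replicate 5 and iPGC-1β replicate 1 were the lowest of their groups in both, and r without them was not computed. Between groups those markers were lower and Esrra was higher in the arrays labelled iPGC-1β. With the marker mean as a covariate the log2 difference of Esrra was 0.55 and the limma adjusted p 0.0334.

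The other ERR receptors were below background. Esrrb (ERRβ, known for its role in embryonic stem cells and placenta; ILMN_1228497, chromosome 12) was detected on 0 of 10 arrays, with a deposited intensity of 112 to 140.7 in wild-type and 108.8 to 140.7 in the arrays labelled iPGC-1β. Esrrg (ERRγ, known from heart, brain and oxidative muscle; ILMN_1245243, chromosome 1) was also detected on 0 of 10 arrays, at 106.5 to 133.8 and 101.5 to 127.1. Their groups overlapped, neither gene was tested, and for both only a level not above background can be given. Esrra was thus the single ERR receptor with a measurable transcript on these arrays.

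The promoter windows of the members are of interest because ERRs, NRF-1, GABP and YY1 are known to bind the promoters of one another's genes and of their targets. RefSeq windows of 300 bases (250 before to 50 after the start site, GRCm38.p6) were searched on both strands for the ERR half-site AAGGTCA, the NRF-1 core GCGCATGCG, the GABP site CCGGAAG and the YY1 core AAGATGGCG, which stood in 4.72%, 1.75%, 8.86% and 1.40% of 32851 windows. The shorter NRF-1 core GCATGCG, added after the windows had been read and contained in the longer one, stood in 3.58%. A match describes the letters of the window and not the binding of a factor. The windows of Esrra and Gabpa are printed because Esrra is the member that rose and Gabpa is the member with the most matches; capitals mark the matches, both are written 5′ to 3′ on the strand of the gene, and they lie at chr19:6921759-6922058 (minus strand) and chr16:84834874-84835173 (plus strand).
Esrra: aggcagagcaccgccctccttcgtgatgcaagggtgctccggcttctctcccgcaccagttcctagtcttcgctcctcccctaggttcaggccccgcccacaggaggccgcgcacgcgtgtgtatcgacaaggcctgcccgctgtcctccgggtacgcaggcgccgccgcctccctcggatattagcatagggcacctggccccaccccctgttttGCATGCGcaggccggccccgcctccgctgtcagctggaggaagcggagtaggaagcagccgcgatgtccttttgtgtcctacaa
Gabpa: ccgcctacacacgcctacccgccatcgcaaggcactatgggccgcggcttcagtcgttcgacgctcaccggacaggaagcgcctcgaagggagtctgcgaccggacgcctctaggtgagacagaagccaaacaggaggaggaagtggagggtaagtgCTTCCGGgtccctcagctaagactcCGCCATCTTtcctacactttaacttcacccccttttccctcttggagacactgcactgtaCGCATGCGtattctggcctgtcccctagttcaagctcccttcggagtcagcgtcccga

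The Esrra window held the shorter NRF-1 core at bases 217 to 223 (position -34 from the start site), and no AAGGTCA. The Gabpa window held the GABP site on the reverse strand at bases 158 to 164, the YY1 core on the reverse strand at bases 183 to 191, and the shorter NRF-1 core on both strands in overlapping matches between bases 243 and 250. In 1 window of Esrrg the shorter NRF-1 core stood on the reverse strand at bases 4 to 10 and 233 to 239. The windows of Ppargc1a, Pprc1, Nrf1, Esrrb and Yy1 held none of the searched letters. Ppargc1b had no promoter window, so it was not searched.

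Of the DNA-binding partners, Nrf1 (nuclear respiratory factor 1, an activator of genes for respiratory subunits and for mitochondrial transcription) was measured by ILMN_1251184 (chromosome 6) and detected on all 10 arrays. Its log2 intensity was 8.26, 8.32, 8.75, 8.17 and 8.24 in wild-type replicates 1 to 5, and 8.10, 8.26, 8.06, 8.28 and 8.28 in the arrays labelled iPGC-1β. Wild-type replicate 3 stood highest, and the other arrays of both groups lay in narrow, overlapping ranges. The log2 difference was -0.15 (SE 0.14, 95% interval -0.44 to 0.14), with a limma adjusted p of 0.495 and an exact permutation p of 0.206, so a fall or rise of the size seen for Ppargc1a lay outside the interval. Its deviations within groups ran against the mean of 3 crypt stem cell markers (r = -0.92 over 10 arrays), a list with no gene called between groups; this value was picked after the 11 marker lists with at least 3 tested genes had been compared with every member.

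Gabpa, the DNA-binding subunit of GABP (also called NRF-2), had 3 dim probes. ILMN_1252392 (chromosome 16) was detected on all 10 arrays and gave log2 intensities of 5.19, 6.20, 6.07, 5.22 and 5.85 in wild-type replicates 1 to 5, and 6.10, 5.82, 6.51, 5.91 and 7.08 in the arrays labelled iPGC-1β. The groups overlapped, with wild-type replicates 1 and 4 below and iPGC-1β replicates 3 and 5 above all arrays of the other group. The log2 difference was 0.58 (SE 0.27, 95% interval 0.00070 to 1.16; limma adjusted p 0.159, exact permutation p 0.119), and it was 0.22 without background correction, where the dim probe moves less. Its deviations within groups went with the mean of the 4 ileal enterocyte markers (r = 0.77 over 10 arrays, again the highest of the 11 lists), which was lower in the arrays labelled iPGC-1β; their part in the Gabpa values was not tested.

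The second Gabpa probe, ILMN_2758120, was detected on 2 wild-type and 3 iPGC-1β arrays and differed by 0.15 (SE 0.15, limma adjusted p 0.569 over all 12349 kept probes, of which 9.67% were called higher and 6.31% lower). The third, ILMN_1221800, was detected on 1 array of each group, wild-type replicate 2 and iPGC-1β replicate 4, and was not tested. Both kept probes had a positive difference without passing the test, but the interval of the second ran from -0.19 to 0.48. The third had a mean log2 intensity of 4.71 in the arrays labelled iPGC-1β against 4.78 in wild-type. Within each array, Gabpa (first probe) minus Nrf1 changed by 0.73 on the log2 scale (SE 0.30, 95% interval 0.047 to 1.41; two-sided exact permutation p = 0.0476, adjusted 0.0952 over 2 pairs), which did not hold after adjustment and was 0.34 without background correction.

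Yy1, a zinc finger protein through which mTOR and PGC-1α are known to act on mitochondrial genes in muscle, was not measurable. Its probe, ILMN_1259496 (chromosome 12), had intensities of 108.5 to 140.6 in wild-type and 108.1 to 144.6 in the arrays labelled iPGC-1β, and only iPGC-1β replicate 2 passed the detection limit of 0.05. No direction can be given for Yy1, Esrrb or Esrrg.

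**Figure D2:**
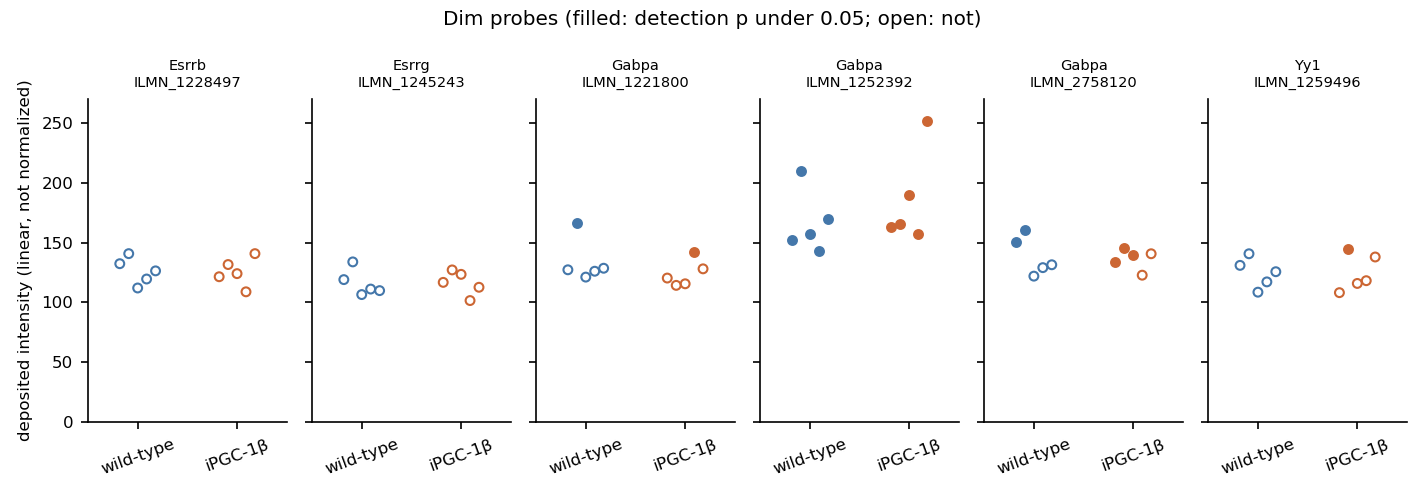
Deposited linear intensity, not normalized, of the 6 dim member probes, one panel a probe; each point is 1 of 5 wild-type or 5 iPGC-1β arrays, filled where the detection p was under 0.05. Esrrb and Esrrg have no filled point, Yy1 has 1, and ILMN_1252392 is the only probe shown that was detected on all 10 arrays.

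**Figure D3:**
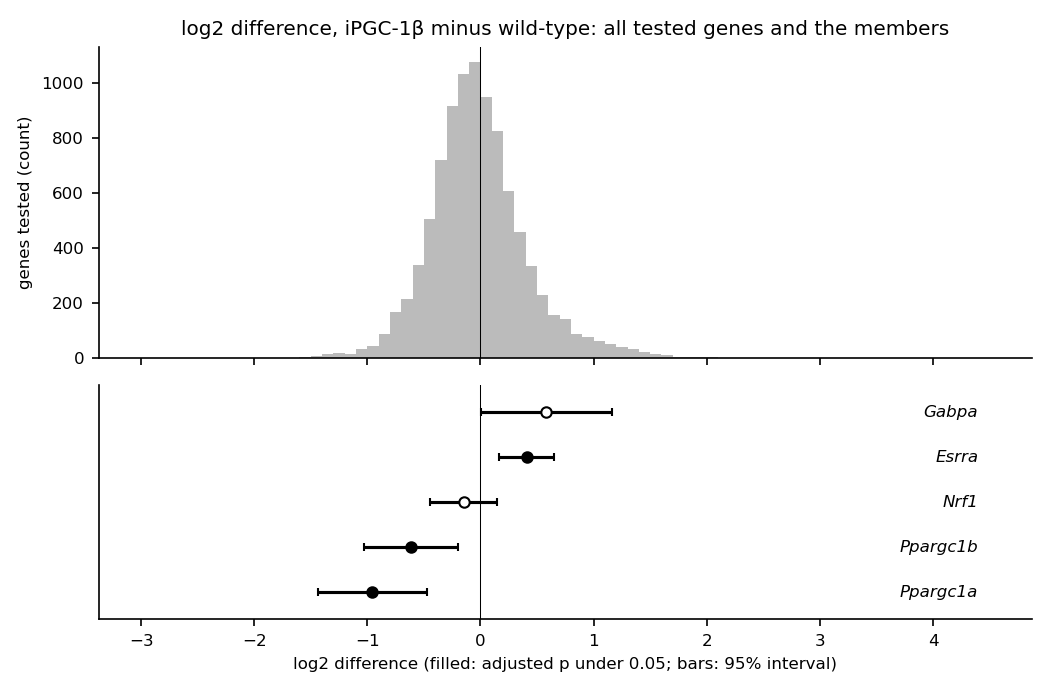
Upper panel, histogram of the log2 difference (iPGC-1β minus wild-type) of 9365 tested genes, with the count of genes on the vertical axis; lower panel, the same difference for the 5 tested members with 95% intervals, filled where the adjusted p was under 0.05. Ppargc1a (-0.96) lies far into the lower tail, Ppargc1b (-0.61) less so, and Esrra (0.41) on the upper shoulder.

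Correlation between members was computed on deviations from the group means over the 10 arrays, for all 10 pairs of the 5 tested members. Ppargc1a and Ppargc1b varied in opposite directions: arrays with high Ppargc1a for their group, such as wild-type replicate 3 and iPGC-1β replicate 1, had low Ppargc1b, and wild-type replicate 5 and iPGC-1β replicates 2 and 5 showed the reverse. Pearson's r was -0.77 (two-sided exact permutation p = 0.0187, adjusted 0.187 over 10 pairs) and Spearman's rho -0.87 (exact permutation p = 0.00528, adjusted 0.0528). Neither passed 0.05 after adjustment. Without the 2 arrays farthest from the median of Ppargc1a, wild-type replicate 5 and iPGC-1β replicate 5, r was -0.83. It lay between -0.84 and -0.70 when each array was left out in turn.

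The opposite variation within groups stood beside a lower signal of both coactivator probes between groups. Marker means of other cell types, chosen here from the same 11 lists after their values were seen, moved with it: over the same 10 arrays the mean of 3 endothelial markers had r = 0.77 with Ppargc1a and -0.58 with Ppargc1b, the mean of 5 goblet cell markers -0.37 and 0.63, and the mean of 3 B cell markers -0.54 and 0.57; their part in the correlation was not tested. The other 9 pairs had r between -0.32 (Ppargc1a and Gabpa) and 0.34 (Nrf1 and Gabpa), all with an adjusted p of 0.982. For Ppargc1a and Esrra, r was -0.10 over 10 arrays (exact permutation p = 0.802, adjusted 0.982) and -0.75 without wild-type replicate 5 and iPGC-1β replicate 5, and 0.77 without iPGC-1β replicate 1, so neither its size nor its direction held.

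**Figure D4:**
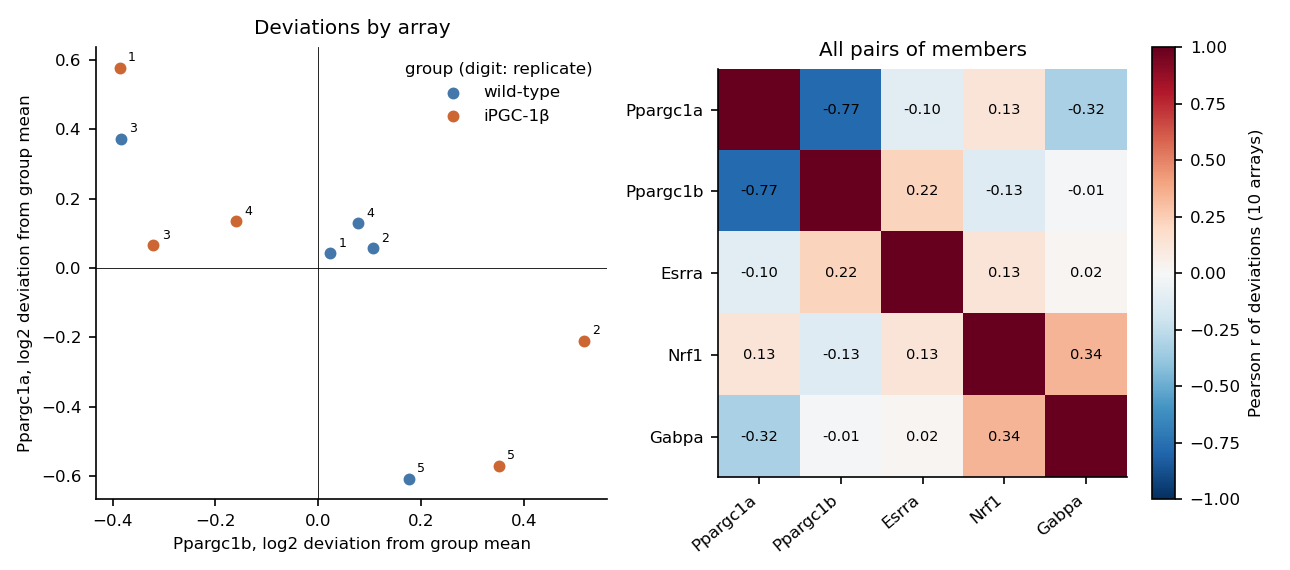
Left, log2 deviation from the group mean of Ppargc1a against that of Ppargc1b, each point 1 of 10 arrays numbered by replicate and coloured by group; right, Pearson's r of such deviations for all pairs of the 5 tested members. The points fall from upper left to lower right (r = -0.77), and no other pair is beyond 0.34 in size.

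The cofactors that PGC-1 proteins recruit were mostly called in neither direction. Of 13 tested genes in a list of 22, 2 were lower (15.4%, against 7.41% of all tested genes) and none higher (against 9.88%). The median log2 difference was -0.20 against -0.05 over all tested genes. Ep300, the acetyltransferase p300 that docks on the amino-terminal part of PGC-1, was at 67.4% of wild-type (log2 difference -0.57, SE 0.14, limma adjusted p 0.0127), with no overlap of the groups. It was named for its small p, and 5.62% of all tested genes were lower without overlap. Ncor1, a corepressor of nuclear receptors that opposes PGC-1 action, was at 70.9% (-0.50, SE 0.14, adjusted p 0.0314). Med1, the Mediator subunit that contacts nuclear receptors, differed by 0.33 (adjusted p 0.120), and Mybbp1a, a repressor bound to PGC-1α, by -0.53 (adjusted p 0.130), neither passing. Ncor1 missed the threshold when any array other than wild-type replicate 5 and iPGC-1β replicate 2 was left out (adjusted p 0.0512 to 0.0782), so that the lower count was then 1. Without iPGC-1β replicate 2 it was 4, and with the enterocyte marker mean as a covariate it was 0.

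Among other transcription factors that PGC-1 proteins are known to coactivate, 2 of 16 tested genes were higher (12.5%, against 9.88% of all tested genes) and 3 lower (18.8%, against 7.41%), with a median of -0.28 against -0.05. Rxrb, the retinoid X receptor β that pairs with many nuclear receptors, was 1.78-fold higher (log2 difference 0.83, SE 0.14, limma adjusted p 0.00159). Nr1h3, the oxysterol receptor LXRα, was 1.52-fold higher (0.60, SE 0.11, adjusted p 0.00290). Neither gene's groups overlapped, but both were named for a small p, and 8.66% of all tested genes were higher without overlap. Foxo1, a factor of fasting and insulin response, was at 64.8% of wild-type (-0.63, SE 0.12, adjusted p 0.00429; -0.36 without background correction), and Nr1h4, the bile acid receptor FXR, at 64.3% (-0.64, SE 0.17, adjusted p 0.0218). The last of the 3 lower genes was Hnf4a, a factor of enterocyte identity, named here after its value was seen (-0.42, adjusted p 0.0373). The lower count was 1 without wild-type replicate 1 or 2 or iPGC-1β replicate 4, and 5 without wild-type replicate 5; Nr1h4 had an adjusted p of 0.0541 to 0.0581 without wild-type replicate 1 or 2 or iPGC-1β replicate 4. Both enterocyte marker lists were lower on the same arrays, as given above, and their part was not tested for these genes beyond the covariate, with which Foxo1 was at -0.39 (adjusted p 0.104), while Nr1h4 (-0.81, adjusted p 0.0446), Rxrb (0.89, 0.0168) and Nr1h3 (0.65, 0.0214) kept their calls.

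Of 16 tested kinases, phosphatases, enzymes and factors known to control PGC-1 expression or activity, 1 was called, as higher, with a median of -0.0021. This is 6.25% higher, against 9.88% of all tested genes. Mtor, the growth kinase that acts through YY1 and PGC-1α in muscle, was 1.40-fold higher (0.49, SE 0.14, limma adjusted p 0.0318), but its adjusted p was 0.0552 to 0.0807 without wild-type replicate 1 or 5 or iPGC-1β replicate 2, 3, 4 or 5. Atf2, which binds the Ppargc1a promoter, Prkag1, a regulatory subunit of AMP-activated kinase, and Nos3, the endothelial nitric oxide synthase, differed by 0.32, 0.29 and 0.27 and did not pass (adjusted p 0.113, 0.187 and 0.226). Among 9 tested partners of GABP and YY1 none was called (limma adjusted p under 0.05), against 17.3% of all tested genes. The smallest p-values there belonged to differences of 0.33 for Hdac3, a deacetylase of corepressor complexes (adjusted p 0.0849), and -0.52 for Ruvbl1, an ATPase of chromatin remodelling complexes (adjusted p 0.105). Ino80, the remodelling ATPase that binds YY1, and Gabpb2, a β subunit of GABP, differed by 0.19 and 0.21 (adjusted p 0.421 and 0.503; limma). At an unadjusted p under 0.05 the count was 2 of 9, Hdac3 and Ruvbl1. The share of all tested genes at that unadjusted level is not given here, so this count cannot be called high or low.

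Known targets of the partner factors were often higher in the arrays labelled iPGC-1β. ERR target genes had a median log2 difference of 0.63 over 15 tested genes, 10 of them higher; without Esrra and Gabpa, which belong to the list as well, 9 of 13 were higher with a median of 0.64. Sirt3, a mitochondrial deacetylase, rose 5.63-fold (2.49, SE 0.14, limma adjusted p 1.35e-06). Idh3a, a subunit of NAD-dependent isocitrate dehydrogenase, rose 2.81-fold (1.49, SE 0.14). Slc25a4, an ADP/ATP carrier, was detected on 1 wild-type and 5 iPGC-1β arrays, so that it passed the filter through the group where it is high. Its log2 difference was 1.95, and 0.73 without background correction, and without this gene 9 of 14 tested ERR target genes were higher. Without wild-type replicate 1 or iPGC-1β replicate 4, and under median centring, 6 genes were called higher; without wild-type replicate 5, 1 gene was called lower.

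NRF-1 and GABP target genes had a median of 0.66 over 22 tested genes, 13 higher and none lower; 2 genes, Cycs and Atp5b, stand in both target lists, and neither was called. Sdhb, the iron-sulfur subunit of succinate dehydrogenase, rose 2.22-fold (1.15, SE 0.11), Tfam, the packaging and transcription factor of mitochondrial DNA, 1.88-fold (0.91, SE 0.14), Tfb2m, a mitochondrial transcription factor, 1.85-fold (0.89, SE 0.14), and Cox5b, a cytochrome oxidase subunit, 1.81-fold (0.86, SE 0.13). The groups did not overlap for any of these 4 genes. They were named for the smallest p of the list, so this separation follows from the choice. Over all tested genes, 8.66% were higher without overlap. Against these values, the factors that the lists are named for differed by -0.15 (Nrf1) and 0.58 (Gabpa), neither passing the test, and Esrra by 0.41. The lists are known targets from the literature in general and were not chosen for ileum. They were chosen with earlier results of these data known, so their share of risen genes is not an independent readout.

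In RefSeq promoter windows, 8 of 19 NRF-1 and GABP target genes with a window (42.1%, against 9.93% of all genes) held CCGGAAG. The planned NRF-1 core GCGCATGCG stood in 4 (21.1%, against 1.95%). The shorter NRF-1 core, added after the windows had been read, stood in 6 (31.6%, against 4.01%). Of 15 ERR target genes, 1 held AAGGTCA (6.67%, against 5.38%), 2 the planned NRF-1 core (13.3%), 4 the shorter NRF-1 core (26.7%) and 3 CCGGAAG (20%). CCGGAAG also stood in 5 of 19 cofactor genes (26.3%), so the letters were not limited to the list named for the factor. The YY1 core stood in 3 of the 19 cofactor genes (15.8%, against 1.64%). These shares describe the lists and were not tested.

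**Figure D5:**
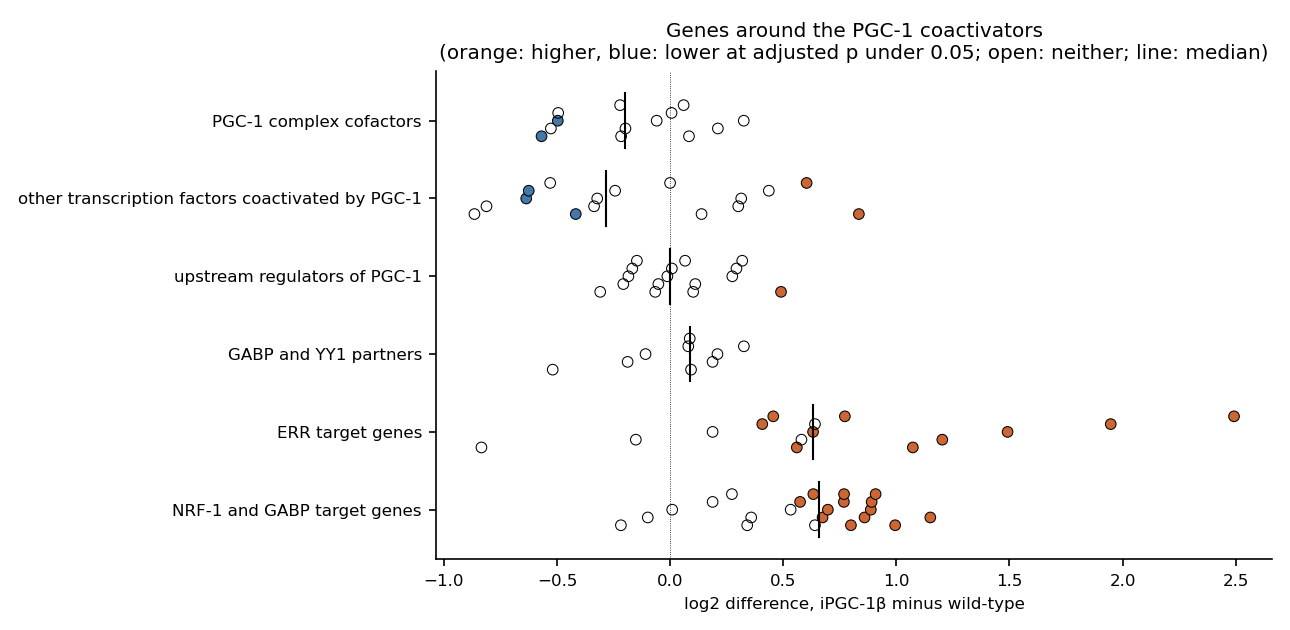
Log2 difference (iPGC-1β minus wild-type) of every tested gene in 6 lists around the PGC-1 coactivators, 1 point a gene, coloured where the adjusted p was under 0.05, with the list median as a vertical line. The medians of both target lists (0.63 and 0.66) lie apart from those of the 4 lists of regulators and cofactors, between -0.28 and 0.09.

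The genes whose deviations from the group means were most like those of a member, among 9364 others, are given as a description. For Ppargc1b these were Itpr1 (r = 0.96), Tlcd3a (0.96; named 2310047D13Rik on the array) and Tagap (0.95). For Ppargc1a they were Btc (0.93), Ppl (0.93) and 5730410E15Rik (0.92). For Esrra they were Sh2b1 (0.98), Edrf1 (0.96; 2700050L05Rik on the array) and Brf1 (0.96). Over 10 arrays, r above 0.9 was reached by 18 genes with Ppargc1b, 10 with Ppargc1a and 15 with Esrra. Of the 9 genes named, Ppl was lower between groups (log2 difference -0.99, limma adjusted p 0.0105) and Sh2b1 higher (0.62, adjusted p 0.0381), each in the direction of its member, and the other 7 were not called.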

How the data were processed

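Biotin-labelled total RNA of 10 ilea was hybridised to Illumina bead arrays. Signals were exported with GenomeStudio, per the submitters' processing notes. The deposited table, per the file headers, holds a linear intensity and a detection p-value for every probe and array and is not normalized. The authors also deposited a processed intensity on a linear scale, whose arrays share a median of 141.7 and which was used as an alternative. No column of sample values was left unused (0).

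Intensities were background-corrected in limma 3.58.1 (R 4.3.3) by normexp, with controls inferred from the detection p-values and an offset of 16, quantile-normalized and taken to log2. Probes with a detection p under 0.05 on at least 5 of 10 arrays were kept (12349), and 1 probe a gene, the brightest on average, entered the test (9365 genes). Groups were compared with lmFit and eBayes, Benjamini-Hochberg adjusted over all tested genes at 0.05. Single values were also compared by two-sided exact permutation over 252 relabelings, and correlations over 14400 orders within groups (numpy 2.4.6, with ranks from scipy 1.17.1). The fit was tested on simulated data. No pair of arrays held identical values. Symbols were brought up to date through the RefSeq table; promoter windows are RefSeq's of GRCm38.p6.

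Named genes are every member probe, up to 4 genes of each list by smallest p, and the 3 genes most like Ppargc1b, Ppargc1a and Esrra. 1 of the list genes so named is not reported here. The members and lists were chosen with earlier results of these data known. Alternatives covered background correction, offset, normalization, the authors' processed values, filters, probe choice, variance model, array weights, left-out arrays and, added later, the joint omission of wild-type replicate 5 and iPGC-1β replicate 3, and an enterocyte covariate. Replicates were numbered in accession order and carry no pairing.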

Additional observations from a re-analysis of the deposited data

Results flagged for a closer look

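In 5 of 60 groups of 5 arrays, 1 array stood apart from the others by Dixon's criterion; chance gives about 1 in 20 groups. Ppargc1b in wild-type replicate 3 had a log2 intensity of 7.93 beside 8.34 to 8.49 in the other wild-type arrays, and without that array the log2 difference was -0.71. Nrf1 in the same array was at 8.75 beside 8.17 to 8.32. Tfb2m, again in wild-type replicate 3, was at 7.59 beside 7.87 to 7.96. Esrra in iPGC-1β replicate 1 was at 11.45 beside 11.66 to 11.73, nearest to wild-type. Cox5b in wild-type replicate 5 was at 13.78 beside 13.27 to 13.39. Wild-type replicate 3 thus accounted for 3 of the 5 values; it had the lowest median deposited signal (127.7) and the highest enterocyte marker mean (12.75) of all arrays.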

How the results depend on the processing

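All 5 members kept their direction under each alternative that tested them (Gabpa was not tested under the stricter filter); Ppargc1a kept its call in 21 of 22, Ppargc1b in 11 of 22 and Esrra in 15 of 22. Calls were lost for Ppargc1b under median centring (-0.66), without a filter (-0.61), without wild-type replicate 5 and iPGC-1β replicate 3 together (-0.49) and with the enterocyte covariate (-0.80), for Ppargc1a with that covariate (-0.74), and for Esrra under median centring (0.32) and without the 2 arrays (0.35). The count of members higher was then 0 (median centring, 2 arrays out), and that of members lower 1 (median centring, no filter, 2 arrays out) or 0 (covariate). Dropping the filter raised the number of genes over which p was adjusted from 9365 to 18138; other causes were not tested. With 1 array left out, log2 differences ranged from -1.11 to -0.81 for Ppargc1a, -0.74 to -0.52 for Ppargc1b, 0.37 to 0.46 for Esrra, -0.19 to -0.049 for Nrf1 and 0.38 to 0.70 for Gabpa, with 0 to 1 members higher and 1 to 2 lower.

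List counts also moved. Cofactors higher were 1 with array weights, and lower 0 with the covariate; 0 to 1 higher and 1 to 4 lower without 1 array. Other coactivated factors lower were 5 with array weights and with 2 arrays out, and 1 to 5 without 1 array. Upstream regulators higher were 0 under median centring and with 2 arrays out, 2 with the covariate, and 0 to 1 without 1 array. GABP and YY1 partners higher were 1 without background correction and with the authors' processed values. ERR targets higher were 6 under median centring and with 2 arrays out, and lower 1 with array weights and 2 with 2 arrays out; 6 to 9 higher and 0 to 1 lower without 1 array. NRF-1 and GABP targets higher were 12 to 14 without 1 array. Over all genes, array weights called 1105 lower, and the covariate 718 higher and 468 lower.

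The r of Ppargc1b and Gabpa, -0.0095, became 0.045 without background correction, 0.047 with the authors' processed values and 0.037 with 2 arrays out. Without 1 array, r ranged from -0.84 to -0.70 (Ppargc1a, Ppargc1b), -0.54 to 0.77 (Ppargc1a, Esrra), -0.46 to 0.31 (Ppargc1a, Nrf1), -0.48 to 0.059 (Ppargc1a, Gabpa), -0.30 to 0.39 (Ppargc1b, Esrra), -0.29 to 0.66 (Ppargc1b, Nrf1), -0.40 to 0.31 (Ppargc1b, Gabpa), -0.070 to 0.27 (Esrra, Nrf1), -0.17 to 0.13 (Esrra, Gabpa) and 0.18 to 0.42 (Nrf1, Gabpa). Without 1 array, Ppargc1b minus Ppargc1a ranged from 0.11 to 0.58 and Gabpa minus Nrf1 from 0.55 to 0.86. Over all 13 alternatives the ranges were 0.11 to 0.64 and 0.34 to 0.86, with the lowest Gabpa minus Nrf1 value without background correction.

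No paired analysis was possible because replicate numbers were given in accession order and the labels tie no wild-type array to an iPGC-1β array. Signal over background limits Gabpa, Yy1, Esrrb and Esrrg.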
